A study of Mus musculus with 16 samples.

Results

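Genomic imprinting leaves 1 parental copy of a gene active and the other silent, under the control of DNA methylation set in the germ line and kept in body cells. Many imprinted genes act on growth of the fetus and placenta, and their transcripts are usually high in embryonic tissue and low in the adult. In embryonic endothelium and mesoderm several of them, among them the mesoderm-specific transcript Mest, are known as developmental genes. The arrays measured total transcript and did not separate the parental copies.

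The 10 genes described here were Mest, Plagl1, Gatm, Peg3, H19, Grb10, Cdkn1c, Dlk1, Sgce and Ndn, 10 of 13674 genes named on the arrays. They were chosen as imprinted genes with earlier values of the difference between the cell lines in view, so that difference is given below as a description, without a test. All probe sets annotated to them were taken, 19 of 24833 other than controls, with 16 on the MG_U74Av2 chip (chip A) and 3 on the MG_U74Bv2 chip (chip B). For H19 the only probe set, 93028_at, was annotated to both H19 and Mir675, the microRNA that lies within the H19 transcript, and its values are given under both names. A level filter kept 13 of the 19 probe sets, from 9 of the 10 genes, because the mean of at least 1 condition lay above the median probe set of the chip (chip A, a signal of 160, and chip B, 231). The 6 that were not kept were 1 of 3 for Plagl1, 2 of 3 for Peg3, 1 of 3 for Grb10, 1 of 2 for Dlk1 and the single H19/Mir675 probe set.

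The cells were mouse endothelial cells, described for all groups as derived from embryonic stem cells with both copies of the VE-cadherin gene (Cdh5) mutated to null. VE-cadherin (VEC) is the cadherin of endothelial adherens junctions. The 4 conditions were confluent VEC-positive cells, confluent VEC-null cells, sparse VEC-positive cells and sparse VEC-null cells, all starved for 36 h in MCDB 131 medium with albumin before RNA was extracted. The labels used here do not say by what means the VEC-positive line regained VEC, nor how many clones each line holds, so that the line difference cannot be told apart from a difference between clones. Each condition was 1 cRNA sample made from 15 µg of total RNA and hybridised to 2 copies of each chip, 16 arrays in all. Values are MAS5 signals of the array copies. Errors and p values therefore cover hybridisation only, not cultures.

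Across the arrays, median signals ranged from 140.7 to 175.05 (chip A) and from 224 to 251.4 (chip B), and r between the log2 values of paired copies was 0.9505 to 0.9889. The Cdh5 probe set, 104083_at, averaged 2566 when confluent and 1399 when sparse in VEC-positive cells, against 2608 and 1268 in VEC-null cells. The labels do not give the deleted part of the gene, and this signal therefore checks no label. All 12 endothelial markers were above the level filter, and their summed signal was 50130.6 to 51778.2 in confluent cells of both lines, 24496.6 to 27126.8 in sparse VEC-positive cells and 15389.8 to 15425.6 in sparse VEC-null cells. The like sums of the confluent lines hid Cldn5 and Vwf, while the other markers did not pass between them. Cldn5 averaged 5115 in confluent VEC-positive cells, against 50.5 in confluent VEC-null cells, and Vwf 2516 against 21.95. Of 7 embryonic stem cell markers 6 were below the level filter, as were Ptprc and Itgam among the blood cell markers, while Cd68 averaged 284.8 in VEC-positive cells when confluent, against 910 in VEC-null cells. The summed signal of 10 epithelial, neural and other germ layer markers was 12125.7 to 13350.1 in sparse VEC-positive cells, against 5045.7 to 7452.7 in the other conditions. Krt19 among them averaged 904.7 in sparse VEC-positive cells, against 3.9 in sparse VEC-null cells. Control probe sets for Gapdh gave their lowest signals in confluent VEC-positive cells, 12787.6 and 12919.5 on chip A, against 16729.2 to 21421.2 in the other conditions. Fewer cells of a type and less RNA per cell cannot be told apart in such bulk samples.

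Promoter windows of the members in the RefSeq table (assembly GRCm38.p6, 250 bases before to 50 bases after each listed start) were available for 7 of the 10 genes, Mest, Plagl1, Gatm, Peg3, Grb10, Dlk1 and Ndn, in 10 windows. The 4 windows below belong to the members whose signals differed by more than 1 on the log2 scale between the lines in at least 1 density by every probe set that passed the level filter, with Peg3 left out for length and Cdkn1c without an entry. Capitals mark CpG dinucleotides, the sites of DNA methylation. The windows are read 5′ to 3′ on the strand of the gene, and no methylation was measured.
Mest, plus strand, chr6:30737800-30738099: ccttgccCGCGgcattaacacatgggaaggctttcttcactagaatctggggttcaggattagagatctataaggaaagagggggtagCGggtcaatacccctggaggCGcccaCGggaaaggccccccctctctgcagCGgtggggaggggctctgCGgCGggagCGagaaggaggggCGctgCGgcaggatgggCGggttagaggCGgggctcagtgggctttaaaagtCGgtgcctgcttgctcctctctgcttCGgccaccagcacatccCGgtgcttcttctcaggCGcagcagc
Plagl1, plus strand, chr10:13090582-13090881: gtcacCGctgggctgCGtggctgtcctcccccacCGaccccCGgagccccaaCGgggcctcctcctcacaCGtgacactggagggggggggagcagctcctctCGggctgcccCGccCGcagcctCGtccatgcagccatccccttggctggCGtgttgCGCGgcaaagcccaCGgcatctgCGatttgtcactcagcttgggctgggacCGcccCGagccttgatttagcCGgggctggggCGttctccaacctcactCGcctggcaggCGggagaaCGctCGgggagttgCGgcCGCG
Gatm, minus strand, chr2:122611228-122611527: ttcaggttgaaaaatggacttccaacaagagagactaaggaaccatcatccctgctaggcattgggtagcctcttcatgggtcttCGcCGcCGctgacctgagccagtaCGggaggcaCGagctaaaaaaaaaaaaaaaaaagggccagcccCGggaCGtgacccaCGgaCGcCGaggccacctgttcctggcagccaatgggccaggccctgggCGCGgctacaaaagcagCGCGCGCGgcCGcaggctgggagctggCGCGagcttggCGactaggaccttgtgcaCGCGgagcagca
Ndn, plus strand, chr7:62348027-62348326: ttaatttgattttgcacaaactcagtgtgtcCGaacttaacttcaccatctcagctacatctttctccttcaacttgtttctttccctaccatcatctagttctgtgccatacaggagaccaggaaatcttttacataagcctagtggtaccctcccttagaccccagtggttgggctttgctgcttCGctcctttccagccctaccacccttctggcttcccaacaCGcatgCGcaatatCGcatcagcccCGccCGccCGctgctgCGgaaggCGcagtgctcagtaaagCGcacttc

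The Mest window held 17 CpG dinucleotides, the Plagl1 window 26, the Gatm window 22 and the Ndn window 11, where the median of 32851 windows in the table was 7. The member with the most was Grb10, at 45 in the window of its outer start (chr11:12037371-12037670, minus strand) and 9 in that of its inner start. The hexamer TGCCGC, which the imprint maintenance factor Zfp57 binds when it is methylated, was searched on both strands. It occurred 2 times in the Mest window shown and 1 time each in the Plagl1 window and the outer Grb10 window, and in 11.6% of all windows of this length. No match was found in the Gatm, Peg3, Dlk1 and Ndn windows, in the inner Grb10 window or in the other Mest start upstream. A match of letters is a description of the window only.

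The lines differed most in Mest and Gatm, in opposite directions. Mest, a paternally expressed gene for a protein of the hydrolase fold family, was near the bottom of the signal range in VEC-positive cells and moderate to high in VEC-null cells. Its probe set 92607_at gave 13.6 and 28.2 in confluent VEC-positive cells, against 1518 and 1376.6 in confluent VEC-null cells. In sparse cells it gave 3.4 and 17.9 in VEC-positive cells, against 426 and 520.3 in VEC-null cells. Every VEC-positive array lay below every VEC-null array at both densities. On the scale of log2(signal + 50) the differences between the lines were -4.41 in confluent and -3.11 in sparse cells, with an SE of 0.186 between copies. Because the VEC-positive signals are so low, the size depends on the offset, and in confluent cells it was -5.34 with an offset of 16 and -2.90 with an offset of 200.

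Gatm, which encodes arginine:glycine amidinotransferase, the first enzyme of creatine synthesis, and is known as maternally expressed in mouse placenta, showed the reverse arrangement. Probe set 96336_at gave 1575.9 and 1585.4 in confluent VEC-positive cells, against 29.1 and 19.8 in confluent VEC-null cells. In sparse cells the values were 878.3 and 740.9 in VEC-positive cells, against 17.8 and 19.8 in VEC-null cells. The lines did not overlap at either density, and the log2 differences were 4.46 and 3.64 (SE 0.147). The other Gatm probe set, 109824_f_at on chip B, gave 1446.1 and 1205.9 in confluent VEC-positive cells, against 9.8 and 44.3 in confluent VEC-null cells. Its log2 differences were 4.19 in confluent and 3.46 in sparse cells (SE 0.385), so that probe sets on both chips gave the same order. With an offset of 200 the confluent difference of 96336_at was 2.99.

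**Figure D1:**
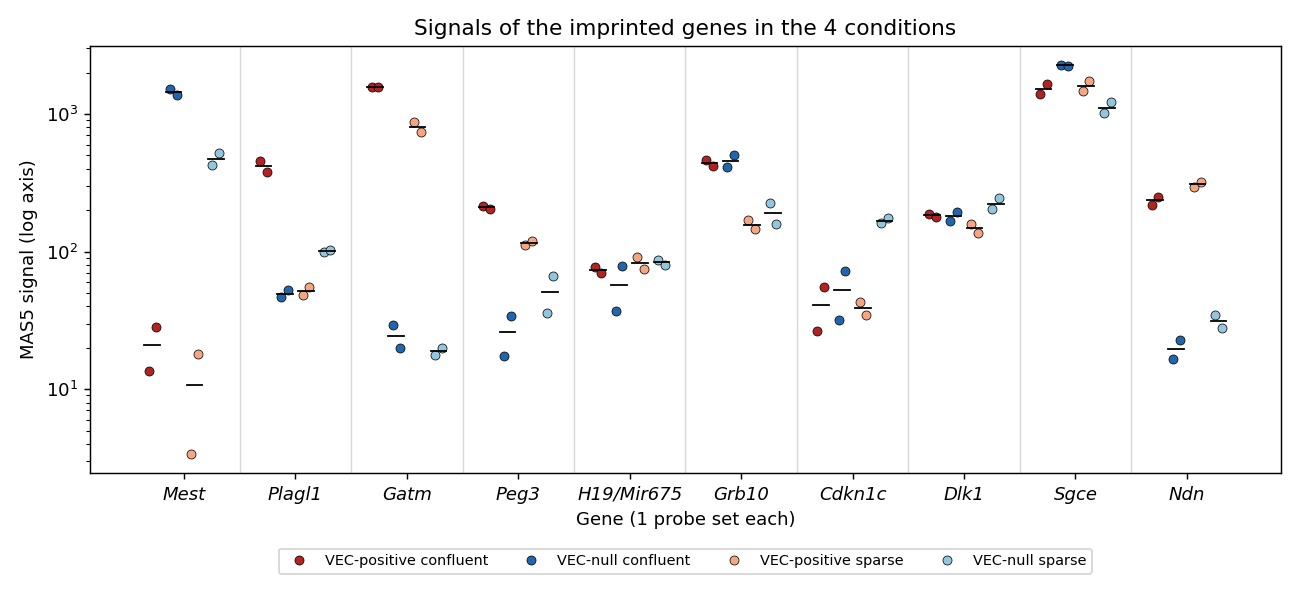
Signals of the 10 imprinted genes on a log axis, 1 probe set per gene, with a point for each of the 2 array copies and a bar at their mean, for the 4 conditions in the order given in the legend. Mest is low in both VEC-positive conditions (3.4 to 28.2) and Gatm in both VEC-null conditions (17.8 to 29.1), while the 8 H19/Mir675 values lie between 36.9 and 90.8.

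Ndn, the paternally expressed gene for the MAGE family protein necdin, was present in VEC-positive cells and low in VEC-null cells. Probe set 101059_at gave 219.8 and 251.4 in confluent VEC-positive cells, against 16.6 and 22.9 in confluent VEC-null cells. In sparse cells it gave 293.3 and 322.6 in VEC-positive cells, against 34.9 and 28 in VEC-null cells. The 4 VEC-positive arrays, from 219.8 to 322.6, were all above the 4 VEC-null arrays, from 16.6 to 34.9, and the log2 differences were 2.03 in confluent and 2.14 in sparse cells (SE 0.173). Its second probe set, 94811_s_at, which by its suffix can match more than 1 transcript, gave 1.25 and 1.77 (SE 0.316), again with no overlap. With an offset of 200 the confluent difference of 101059_at was 0.99.

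Plagl1 and Peg3, paternally expressed genes for zinc finger transcription factors, were both highest in confluent VEC-positive cells. Plagl1 probe set 92502_at gave 458.2 and 381.5 in confluent VEC-positive cells, against 46.4 and 52.4 in confluent VEC-null cells. In sparse cells the order was turned, at 48.5 and 55.5 in VEC-positive cells, against 99.6 and 102.5 in VEC-null cells. The log2 line differences were 2.24 in confluent and -0.57 in sparse cells (SE 0.171). The other kept probe set, 163814_r_at on chip B, gave 381.5 and 350 in confluent VEC-positive cells, against 101.9 and 140.4 in confluent VEC-null cells, and its sparse values overlapped between the lines. The third, 92501_s_at, stayed below the filter and had the same order in confluent cells, with means of 143.1 in VEC-positive and 28.85 in VEC-null cells.

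Plagl1 lies on chromosome 10, whose 436 tested genes had a median line difference of 0.45 in confluent and 0.36 in sparse cells, where the median over all chromosomes was -0.01 and -0.04. The 10 tested genes next to Plagl1, 5 on each side, had medians of -0.05 in confluent and 0.00 in sparse cells, and 1 of them passed in confluent cells. For Mest and Gatm the medians of their 10 neighbours in confluent cells were 0.16 and -0.11. For Ndn and Peg3 they were 0.11 and 0.06. The chromosomes of the other members, 2, 6, 7, 11 and 12, had median line differences between -0.07 and 0.01.

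Peg3 probe set 96765_at gave 215.4 and 205.7 in confluent VEC-positive cells, against 17.5 and 34.3 in confluent VEC-null cells. In sparse cells it gave 111.6 and 120.2 in VEC-positive cells, against 35.8 and 66.5 in VEC-null cells. The lines did not overlap at either density, with log2 differences of 1.79 and 0.73 (SE 0.212). Probe set 96765_at passed the level filter through confluent VEC-positive cells alone, so that differences from that condition were built in. The 2 Peg3 probe sets below the filter, 161316_f_at and 101451_at, had the same order in confluent cells (1.12 and 0.78 on the log2 scale), while their sparse values overlapped between the lines.

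Cdkn1c, the maternally expressed gene for the cyclin-dependent kinase inhibitor p57Kip2, had its highest level in sparse VEC-null cells. Its single probe set, 95471_at, gave 43.3 and 34.6 in sparse VEC-positive cells, against 160.2 and 174.7 in sparse VEC-null cells. In confluent cells the lines overlapped, at 26.7 and 55.5 in VEC-positive cells and 31.6 and 72.9 in VEC-null cells. The log2 line differences were -0.15 in confluent and -1.29 in sparse cells (SE 0.251). Only sparse VEC-null cells were above the chip median, so this probe set entered the test through that condition alone.

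Sgce, the paternally expressed gene for epsilon-sarcoglycan of the dystrophin-associated complex, was at 1012.7 or more on every array and differed by less than Mest, Gatm and Ndn between the lines. Probe set 101861_at gave 1407.7 and 1654.2 in confluent VEC-positive cells, against 2260.1 and 2253.9 in confluent VEC-null cells. In sparse cells it gave 1461.6 and 1736.9 in VEC-positive cells, against 1012.7 and 1217.6 in VEC-null cells. The order of the lines was therefore opposite at the 2 densities, with log2 differences of -0.55 and 0.50 (SE 0.125).

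Grb10, Dlk1 and H19 differed little between the lines. Grb10, an adaptor protein that restrains insulin and growth factor receptor signalling and is expressed from the maternal copy in most tissues, gave log2 line differences of -0.04 in confluent and -0.21 in sparse cells by probe set 93691_s_at (SE 0.175). Its second kept probe set, 93690_at, gave 0.32 and -0.21 (SE 0.147), and the third, 95450_at, stayed between 5.4 and 44 on all arrays. Dlk1, a paternally expressed transmembrane protein with EGF repeats, gave 0.02 and -0.46 by probe set 101975_at (SE 0.16). Its values were 160 and 136 in sparse VEC-positive cells, against 202.8 and 243.5 in sparse VEC-null cells. The other Dlk1 probe set, 108265_at on chip B, stayed below the filter and gave line differences of 0.11 in confluent and 0.03 in sparse cells. The H19/Mir675 probe set gave 77.1 and 69.7 in confluent VEC-positive cells, 36.9 and 78.4 in confluent VEC-null cells, 90.8 and 74.9 in sparse VEC-positive cells and 87.2 and 79.7 in sparse VEC-null cells. H19 is a maternally expressed long noncoding RNA, and its values overlapped between the lines at both densities and did not reach the filter.

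**Figure D2:**
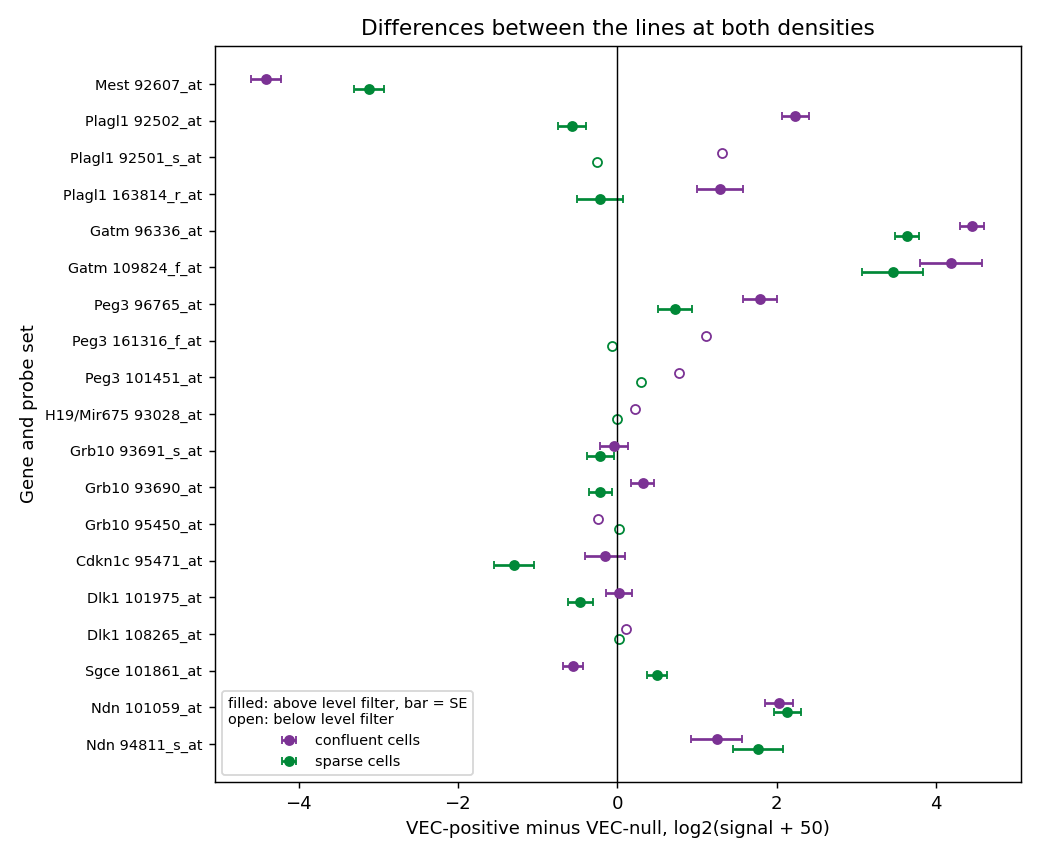
Differences between VEC-positive and VEC-null cells on the log2(signal + 50) scale for all 19 probe sets, with confluent cells above sparse cells in each row. Filled points with a bar (SE between copies) passed the level filter and open points did not. Mest lies at -4.41 and -3.11 and the Gatm probe sets between 3.46 and 4.46, while Plagl1 is above 0 in confluent cells and below 0 in sparse cells for its 3 probe sets.

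Over the 13 kept probe sets, 7 were higher and 1 lower in VEC-positive cells when confluent by the call used throughout, an adjusted p below 0.05 and a log2 change of at least 1. Among all 14301 tested probe sets 4.29% were higher and 3.62% lower, 7.91% in all. In sparse VEC-positive cells 4 of the 13 were higher and 2 lower, where 5.43% of all tested probe sets were higher and 4.27% lower, 9.71% in all. As the genes were chosen on these differences, nothing is read from these counts.

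Markers of smooth muscle, fibroblast and other mesenchymal cells also differed between conditions. The summed signal of the 12 listed markers when confluent was 1824.3 to 2141.9 in VEC-positive cells, against 3995 to 4537.3 in VEC-null cells. In sparse cells it was 1678.3 to 1920.8 in VEC-positive and 1886.8 to 2112.3 in VEC-null cells. Of the 12 markers 7 were above the filter. Among these, Col3a1 averaged 49.2 when confluent and 118.9 when sparse in VEC-positive cells, against 1565 and 230.2 in VEC-null cells. When confluent, Postn averaged 9.1 in VEC-positive cells, against 704.9 in VEC-null cells, and Pdgfrb 10.2 against 327.6. Acta2 was lower in VEC-positive cells at both densities, at 5.55 against 122.6 when confluent and 133.1 against 371.4 when sparse. Decorin (Dcn) ran the other way, at 586.4 in VEC-positive cells against 231.2 in VEC-null cells when confluent and 435.2 against 93.95 when sparse. Tagln and Col1a2 differed between the confluent lines by 0.26 and 0.09 on the log2 scale and did not pass, and Cnn1 and Myh11 were at 22.75 or less in every condition. Mest was moderate to high in both VEC-null conditions. In sparse VEC-null cells the 7 kept markers averaged 10.95 (Postn), 13 (Pdgfrb), 93.95 (Dcn), 151.1 (Tagln), 230.2 (Col3a1), 371.4 (Acta2) and 730.8 (Col1a2). The part of these markers in the Mest values was not tested.

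Confluence was also set against sparse culture within each line. The density differences are built from the same condition means as the line differences that chose the genes, so for the members they too are given as a description, with the SE between copies and without a p value. With confluence Plagl1 and Grb10 had log2 values above 1 in VEC-positive cells, Mest and Grb10 had values above 1 in VEC-null cells, and Cdkn1c had a value below -1 in VEC-null cells. By the call used over all probe sets, 4 of the 13 kept probe sets were higher and 0 lower in confluent VEC-positive cells than in sparse ones, where 8.13% of all tested probe sets were higher and 7.21% lower, 15.3% in all. In VEC-null cells 2 were higher and 1 lower, where 9.08% of all tested probe sets were higher and 7.4% lower, 16.5% in all. Nothing is read from these counts, also because a probe set that passed the level filter through 1 high condition had to differ from the others.

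Plagl1 had the largest density difference of the members, in VEC-positive cells. For 92502_at the confluent values of 458.2 and 381.5 stood against sparse values of 48.5 and 55.5, a log2 difference of 2.20 (SE 0.171). For 163814_r_at the difference was 1.37 (SE 0.29), and 0.86 with an offset of 200. Both probe sets passed the level filter through confluent VEC-positive cells alone. In VEC-null cells Plagl1 gave -0.60 by 92502_at, with 46.4 and 52.4 in confluent and 99.6 and 102.5 in sparse cells, and -0.14 by 163814_r_at. The difference between the responses of the lines was not tested.

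Grb10 was higher on every confluent array than on every sparse array of the same line by both kept probe sets. By 93691_s_at it gave 466.1 and 416.1 in confluent against 169.2 and 145.7 in sparse VEC-positive cells, a log2 difference of 1.24 (SE 0.175). In VEC-null cells it gave 410.7 and 501.3 in confluent against 226.6 and 157.5 in sparse cells, a difference of 1.07. By 93690_at the differences were 1.40 in VEC-positive cells and 0.87 in VEC-null cells (SE 0.147). The VEC-null difference by 93691_s_at was 0.98 with quantile normalisation, 0.94 without confluent VEC-null copy 2 and 0.87 without sparse VEC-null copy 2. With an offset of 200, no Grb10 difference of these probe sets reached 1 in either line, the highest being 0.97.

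Mest gave 1518 and 1376.6 in confluent against 426 and 520.3 in sparse VEC-null cells, a log2 difference of 1.52 (SE 0.186). In VEC-positive cells its values of 13.6 and 28.2 when confluent and 3.4 and 17.9 when sparse overlapped (0.23). Cdkn1c gave 31.6 and 72.9 in confluent against 160.2 and 174.7 in sparse VEC-null cells (-1.12, SE 0.251), the sparse condition through which alone it passed the filter. The Cdkn1c difference was -0.55 with an offset of 200 and -0.82 without confluent VEC-null copy 1. In VEC-positive cells Cdkn1c gave 0.02 and its values overlapped.

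The density differences of the other members lay below 1 in size in both lines. Sgce gave 0.99 in VEC-null cells (SE 0.125), with 2260.1 and 2253.9 in confluent against 1012.7 and 1217.6 in sparse cells, and -0.06 in VEC-positive cells. Gatm by 96336_at gave 0.93 in VEC-positive cells (SE 0.147), where confluent values of 1575.9 and 1585.4 were above sparse values of 878.3 and 740.9. By its chip B probe set the Gatm difference was 0.45 (SE 0.385). Peg3 by 96765_at gave 0.65 in VEC-positive cells and -0.41 in VEC-null cells (SE 0.212). The first value starts from confluent VEC-positive cells, the condition through which alone 96765_at passed the filter. Ndn by 101059_at gave -0.33 and -0.22, and Dlk1 by 101975_at gave 0.24 and -0.24, in VEC-positive and VEC-null cells in that order.

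**Figure D3:**
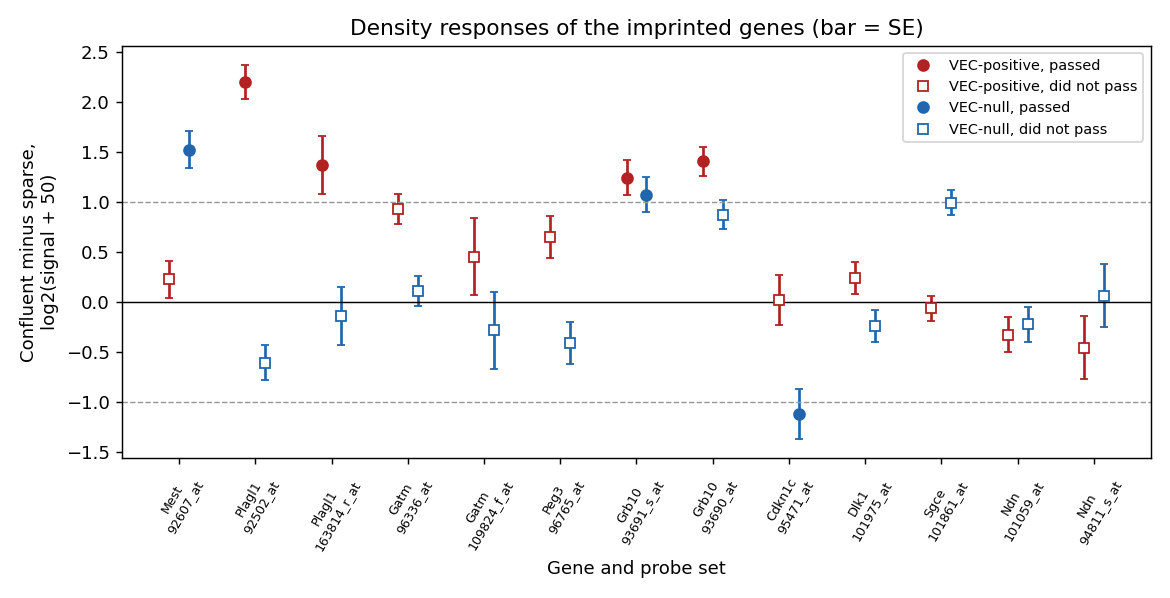
Confluent minus sparse on the log2(signal + 50) scale for the 13 kept probe sets, with VEC-positive cells left of VEC-null cells, bars for the SE between copies and dashed lines at the size threshold of 1. Filled circles met the call used over all probe sets, and the highest, Plagl1 92502_at in VEC-positive cells, lies at 2.20 beside -0.60 in VEC-null cells.

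For the members above the level filter, the conditions were ordered by their 4 condition means. Some conditions stood apart and others overlapped. Overlap here compares the 2 array copies of each condition, which cover hybridisation only, not cultures. The share of all tested probe sets with such steps was not counted, so nothing is read from them. Gatm stood highest in confluent VEC-positive cells, then in sparse VEC-positive cells, and its 2 VEC-null conditions overlapped. Mest was highest in confluent VEC-null cells, then in sparse VEC-null cells, and its 2 VEC-positive conditions overlapped. By 96765_at Peg3 decreased in the order confluent VEC-positive, sparse VEC-positive, sparse VEC-null and confluent VEC-null cells, with no overlap between neighbours. Its VEC-null conditions were barely apart, with nearest copies of 35.8 and 34.3. For Ndn by 101059_at the order was sparse VEC-positive, confluent VEC-positive, sparse VEC-null and confluent VEC-null cells, and neighbouring conditions did not overlap, while by 94811_s_at the VEC-null conditions overlapped. The VEC-null conditions of 101059_at were both low, with nearest copies of 28 and 22.9. For Plagl1 by 92502_at confluent VEC-positive cells stood highest and sparse VEC-null cells second, and the remaining conditions overlapped. In Sgce confluent VEC-null cells were highest, the 2 VEC-positive conditions overlapped, and sparse VEC-null cells were lowest. Grb10 by 93691_s_at had 2 steps, confluent above sparse, with the lines overlapping within each, while by 93690_at confluent VEC-positive cells lay above confluent VEC-null cells. For Cdkn1c sparse VEC-null cells stood highest and the other 3 conditions overlapped. Dlk1 by 101975_at was highest in sparse VEC-null cells and lowest in sparse VEC-positive cells, and its confluent conditions overlapped.

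Genes with the most similar pattern over the 4 conditions were found among 5351 named genes of chip A, by the distance between centred log2 condition means. The nearest to Mest were Gpsm3 (distance 1.24), Entpd1 (1.26) and Sox11 (1.4), and to Gatm they were Cdkn1a (1.31), Ak1 (1.36) and Ephx1 (1.39). Plagl1 had closer matches in Il1r1 (0.285), Hsd11b1 (0.427) and Nefh (0.492). Il1r1 averaged 512.9 when confluent and 46.3 when sparse in VEC-positive cells, against 50.9 and 126.1 in VEC-null cells. Ndn was nearest to Plcd1 (0.239), Stat6 (0.244) and Cryab (0.316), and Peg3 to Prp2 (0.152), Acsf3 (0.217) and Dnajc3 (0.271). Grb10 was nearest to Colq (0.12), Ube2l6 (0.166) and Slc66a2 (0.186), and Cdkn1c to Hnrnpd (0.0735), Hpf1 (0.164) and Mre11a (0.171). They are listed as a description of 4 condition means only.

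A further 73 genes known as imprinted, in at least some mouse tissues, were listed beside the members, with results of these data known. Of these 54 were on the chips and 28 were tested. In confluent VEC-positive against confluent VEC-null cells 2 were higher, 2 were lower and 24 did not pass, with a median of 0.19 against -0.01 over all 8960 tested genes, of which 4.56% were higher and 3.48% lower. In sparse cells 6 were higher, 3 were lower and 19 did not pass (median 0.26 against -0.04), where 5.83% of all tested genes were higher and 4.4% lower. With confluence 2 rose and 3 fell in VEC-positive cells (median 0.15 against 0.04), where 8.71% of all tested genes rose and 7.24% fell. In VEC-null cells 4 rose and 3 fell (median 0.12 against -0.01), where 9.32% of all tested genes rose and 7.89% fell. In all, 12 of the 28 passed in at least 1 of the 4 comparisons by their representative probe set, as did 31.6% of all tested genes. Other probe sets of Kcnq1, Gnas and Meg3 passed as well. For Gnas, which encodes the stimulatory G protein alpha subunit, 105048_at gave 1.498 with confluence in VEC-positive cells and 92672_at gave 1.24 in VEC-null cells. Probe set 92672_at passed the level filter through confluent VEC-null cells alone, so its rise was built in. Probe set 105048_at passed it through confluent cells alone, so its rise was favoured by the filter. The representative Gnas probe set, 93271_s_at, gave 0.07 in VEC-positive and 0.30 in VEC-null cells with confluence and did not pass.

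Igf2, the paternally expressed fetal growth factor whose gene neighbours H19, was the listed gene with the largest rise with confluence. Probe set 98623_g_at gave 454.7 and 450.7 in confluent VEC-positive cells, 1279.1 and 1358.4 in confluent VEC-null cells, 106.1 and 119.7 in sparse VEC-positive cells and 98 and 72.4 in sparse VEC-null cells. The rise with confluence was 1.63 in VEC-positive cells (SE 0.142) and 3.35 in VEC-null cells. Probe set 98623_g_at passed the level filter through confluent cells alone. Its rises were thus favoured by the filter and are a description without a p value. Confluent VEC-positive cells were lower than confluent VEC-null cells by -1.44 on the log2 scale (limma adjusted p 7.13e-05), and the other Igf2 probe set, 98622_at, averaged 15.75 or less in every condition. Igf2r, which clears Igf2 and is maternally expressed, was higher in sparse VEC-positive than in sparse VEC-null cells, at 995.2 and 1074 against 443.9 and 462.8 (1.11, limma adjusted p 3.26e-05), a call lost with an offset of 200 (0.92).

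Beside Sgce, the divergently transcribed neighbour Peg10, a paternally expressed gene derived from a retrotransposon, was lower in sparse VEC-positive cells. Peg10 gave 72 and 44 in sparse VEC-positive cells, against 419.5 and 451 in sparse VEC-null cells (-2.18, limma adjusted p 1.42e-05). In sparse cells Sgce differed by 0.50. Peg10 rose with confluence in VEC-positive cells (1.53, limma adjusted p 6.26e-05), though not with an offset of 200 (0.84), and gave 0.11 in VEC-null cells. Its probe set, 92269_r_at, carries the suffix that Affymetrix gives to probe sets that break a design rule. Pon3, a paraoxonase gene of the same cluster, gave 28.1 and 33.5 in confluent VEC-positive cells, against 393.3 and 373.9 in confluent VEC-null cells (-2.42), and its chip B probe set gave -2.41. Both Pon3 probe sets passed the level filter through confluent VEC-null cells alone. Their differences from that condition were thus built in and are a description without a p value. In sparse cells Pon3 was lower by -1.19, without the call when sparse VEC-positive copy 2 was left out and with an offset of 200 (-0.47), and its chip B probe set gave -0.43. Pon3 and Pon2 rose with confluence in VEC-null cells by 1.51 and 1.10 (limma adjusted p 3.03e-05 for Pon2), and both calls were lost with an offset of 200. Ppp1r9a was higher in sparse VEC-positive cells (1.01), a call that held in 10 of 14 alternative settings (the additive fit apart). Ppp1r9a passed the level filter through VEC-positive cells alone, so this difference was favoured by the filter and is a description without a p value. Asb4 gave log2 line differences of -0.14 and -0.10.

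Near Cdkn1c and H19 on chromosome 7, 7 listed neighbours were tested. Cd81, a tetraspanin, gave 5810.5 and 6061.8 in sparse VEC-positive cells, against 2517.3 and 2364 in sparse VEC-null cells (1.27, SE 0.074, limma adjusted p 2.58e-06). It rose with confluence in VEC-null cells by 1.31 (limma adjusted p 6.06e-07). Tssc4, Slc22a18, Nap1l4, Osbpl5 and the representative Kcnq1 probe set, 161796_r_at, did not pass in any comparison, with log2 values between -0.52 and 0.85. The other kept probe set of Kcnq1, a potassium channel gene, was 99322_at, which gave 1.06 with confluence in VEC-positive cells, 2.19 in VEC-null cells and -1.05 between the confluent lines and passed in all 3. It passed the level filter through confluent VEC-null cells alone, so that differences from that condition were built in. Cobl, next to Grb10 on chromosome 11 and known for actin nucleation, fell with confluence in both lines by probe set 108712_at. It gave 138.7 and 123.8 in confluent VEC-positive cells, 33.5 and 25.8 in confluent VEC-null cells, 4256.3 and 4019.7 in sparse VEC-positive cells and 917.8 and 969.5 in sparse VEC-null cells. The falls were -4.53 in VEC-positive and -3.64 in VEC-null cells. Probe set 108712_at passed the level filter through sparse cells alone. These falls were thus favoured by the filter and are a description without a p value. The line differences of 108712_at were 1.19 in confluent and 2.08 in sparse cells (limma adjusted p 0.000524 and 1.5e-05). The confluent line call was lost with an offset of 200 (0.53), and the second Cobl probe set, 115490_at, gave -0.34 and -0.58 with density and did not pass. Ddc, on the other side of Grb10, did not pass, with values between 0.10 and 0.76.

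Among the remaining partners, Copg2 beside Mest gave log2 line differences of 0.67 in confluent and -0.39 in sparse cells, where Mest gave -4.41 and -3.11. Rtl1 of the Dlk1 cluster gave 0.81 and 0.73 and Ube3a of the Ndn cluster -0.21 and -0.61, and none passed. Meg3, the maternally expressed noncoding RNA of the Dlk1 cluster, was represented by a probe set below the filter, but its kept probe set 109661_at averaged 48.9 in confluent and 265.4 in sparse VEC-positive cells, a fall that passed (-1.68). As 109661_at passed the level filter through sparse VEC-positive cells alone, this fall was built in. No partner of Peg3 was above the level filter. Elsewhere Dcn, the matrix proteoglycan decorin on chromosome 10, was higher in VEC-positive cells by 1.18 in confluent and 1.75 in sparse cells (limma adjusted p 0.000179 and 1.27e-05), the first not with an offset of 200 (0.87). The 436 tested genes of chromosome 10 had median line differences of 0.45 in confluent and 0.36 in sparse cells. Impact was lower in sparse VEC-positive cells (-1.21, limma adjusted p 0.000281, lost with an offset of 200) and fell with confluence in VEC-null cells (-1.51, limma adjusted p 3.62e-05). Ano1, a chloride channel, fell with confluence by -3.13 in VEC-positive and -1.80 in VEC-null cells, the second not with an offset of 200 (-0.91). Ano1 passed the level filter through sparse cells alone, so its falls were favoured by the filter and are a description without a p value. Its line difference of 1.01 in sparse cells (limma adjusted p 0.0289) held in 7 of 14 settings. Dhcr7, an enzyme of cholesterol synthesis, fell in VEC-positive cells by -1.32 (limma adjusted p 3.66e-05), though not with an offset of 200 (-0.92).

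**Figure D4:**
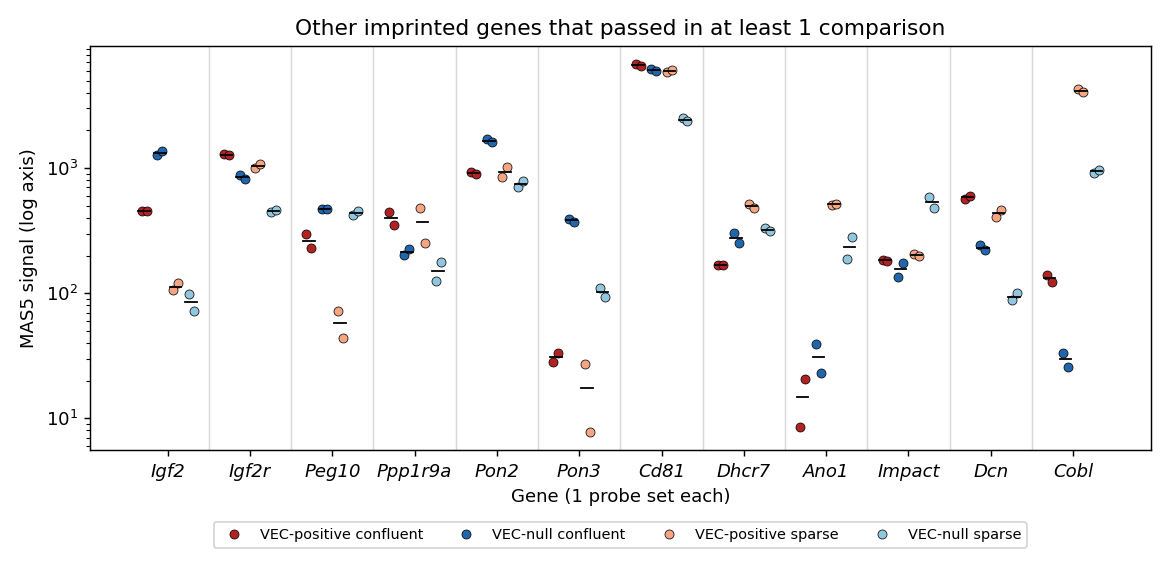
Signals of the 12 listed imprinted genes that passed in at least 1 comparison, on a log axis, with a point for each of the 2 array copies and a bar at their mean. Igf2 is highest in confluent VEC-null cells (1279.1 and 1358.4), Pon3 is lowest in both VEC-positive conditions, and Cobl is highest in sparse VEC-positive cells (4256.3 and 4019.7).

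Factors that set, keep or read DNA methylation at imprinted regions were taken as a list of 31 genes, of which 26 were tested. In confluent VEC-positive cells 1 (Mbd4) was higher and 2 (Tet3, Mbd2) were lower (median 0.20 against -0.01 over all tested genes). Among all tested genes 4.56% were higher and 3.48% lower. In sparse VEC-positive cells 0 were higher, 2 were lower and 24 did not pass (median -0.23 against -0.04). Of all tested genes 5.83% were higher there and 4.4% lower. With confluence 2 rose and 0 fell in VEC-positive cells (median 0.49 against 0.04 over all tested genes), and 3 rose and 0 fell in VEC-null cells (median 0.01 against -0.01). Of all tested genes 8.71% rose and 7.24% fell in VEC-positive cells, and 9.32% rose and 7.89% fell in VEC-null cells. Nothing is read from these counts. Besides the genes counted, 163860_at of Arid4b, which is not its representative probe set, passed with confluence in VEC-null cells (1.68) and between the confluent lines (-1.14). It passed the level filter through confluent VEC-null cells alone, so both differences were built in. The maintenance methyltransferase Dnmt1 and its partner Uhrf1, Zfp57, Trim28 and Ctcf did not pass in any comparison. The oxygenase Tet3 gave 392.6 and 329.4 in confluent VEC-positive cells, against 1010.1 and 888.6 in confluent VEC-null cells (-1.28, SE 0.278, limma adjusted p 0.00637), and it rose with confluence in VEC-null cells by 2.52 (limma adjusted p 5.38e-05). Mbd2, which binds methylated DNA, was lower in confluent VEC-positive cells (-1.08, limma adjusted p 0.000669), without the call when confluent VEC-positive copy 2 or confluent VEC-null copy 1 was left out and with an offset of 200 (-0.83). Mbd4, a methyl-CpG binding glycosylase, was higher there (1.02, limma adjusted p 0.000222), without the call when confluent VEC-positive copy 1 was left out or with an offset of 200 (0.89). Mbd4 rose with confluence by 2.88 in VEC-positive and 1.24 in VEC-null cells (limma adjusted p 1.14e-07 and 2.51e-05), the second not with an offset of 200 (0.94). Its other probe set, 115632_at, gave 3.13 and 1.07 with confluence and 0.89 between the confluent lines, and in sparse cells it was lower in VEC-positive than in VEC-null cells and passed (-1.17), where the first probe set gave -0.62.

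The de novo methyltransferase gene Dnmt3a rose with confluence by 1.09 in VEC-positive and 1.55 in VEC-null cells by probe set 100479_at (limma adjusted p 0.00188 in VEC-positive cells). This probe set passed the level filter through confluent VEC-null cells alone, so its rise in VEC-null cells was built in. Both calls were lost with an offset of 200 (0.47 and 0.83), and the first also without sparse VEC-positive copy 2 and with quantile normalisation, while another Dnmt3a probe set, 113658_at, gave 1.55 and 1.81 and passed in both lines. Suz12, a subunit of Polycomb repressive complex PRC2, gave 359.6 and 283 in sparse VEC-positive cells, against 830.9 and 917.2 in sparse VEC-null cells (-1.32, limma adjusted p 0.000126), while its other tested probe set, 103746_at, gave -0.64. Rbl1, the pocket protein p107, was lower in the same comparison (-1.02, limma adjusted p 7.09e-05), a call that held in 12 of 15 alternative settings and was lost without sparse VEC-null copy 1.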

How the data were processed

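Each array gave 1 MAS5 intensity (signal) per probe set, deposited by the authors after MAS5 analysis with a scaling target of 500, per the labels' design text and the submitters' processing notes. Trimmed means of 499.85 to 499.88 on every array match that scaling, and no further normalization step was recovered from the values. The design text also names a normalization on the median over samples, whose effect on the deposited values is not known. Intensities have no read depth, and the number of arrays limits the precision.

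Signals were transformed to log2(signal + 50) and fitted per chip with limma 3.58.1 (R 4.3.3) over the 4 conditions, with eBayes and a mean-variance trend, and p values were adjusted by Benjamini-Hochberg across the 14301 probe sets kept on either chip. A call needed an adjusted p below 0.05 and a log2 change of at least 1. For the members neither the line nor the density differences were given a p value, although a test of the density differences had been planned, because both are built from the condition means in the rule that chose them. The script was checked on simulated data. Tables and figures were made with Python 3.11.15, pandas 2.3.3, numpy 2.4.6 and matplotlib 3.10.9. Gene names came from the platform annotation, where 21414 of 24833 probe sets had 1 symbol, 574 several and 2845 none, and 21367 matched RefSeq by Entrez ID.

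All 10 genes were named with all their probe sets. Chip A took precedence over chip B for the probe set that stands for a gene, and among several the one with the highest mean was taken; listed genes were named where they passed or neighboured a member. Members and lists were chosen with earlier results of these data known. Replicate numbers did not pair the arrays: deviations of same-numbered copies correlated between -0.057 and 0.080. Alternatives were another offset, filter, normalization or variance model, a replicate block, each copy left out, and an additive fit over the 4 cRNA samples.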

Additional observations from a re-analysis of the deposited data

Results flagged for a closer look

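In Plagl1 (92502_at), Peg3 (96765_at) and Dlk1 (101975_at) both confluent arrays lay above both sparse arrays in VEC-positive cells and below them in VEC-null cells. The share of all tested probe sets with this order was not counted, so nothing is read from it. Plagl1 (92502_at) gave 2.20 on the log2 scale in VEC-positive cells and -0.60 in VEC-null cells. Peg3 (96765_at) gave 0.65 in VEC-positive cells and -0.41 in VEC-null cells, and Dlk1 (101975_at) gave 0.24 and -0.24 (SE 0.16) in the same order. Plagl1 92501_s_at and Peg3 161316_f_at, both below the filter, had the same order. The kept Plagl1 163814_r_at overlapped between densities in VEC-null cells, and Peg3 101451_at, below the filter, overlapped in both lines. Dlk1 108265_at, also below the filter, was higher with confluence in both lines (0.38 in VEC-positive and 0.30 in VEC-null cells). The difference between the responses was not tested.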

How the results depend on the processing

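Counts of called probe sets fell with an offset of 200 to 1305 with density in VEC-positive cells (2194 as reported), 1444 with density in VEC-null cells (2356), 590 between confluent lines (1131) and 689 between sparse lines (1388). With the 75th percentile filter, which tests fewer probe sets, 699 and 920 were called between confluent and sparse lines. The additive fit over 4 cRNA samples, which gives both lines 1 common density effect, called 1416 with density and 320 between lines. Leaving out 1 copy gave 2182 to 2315, 2333 to 2405, 1094 to 1206 and 1371 to 1526 in the same order of comparisons. With the replicate number as a block 2196 probe sets were called with density in VEC-positive cells, and the block changed no member's call.

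Density changes of members that turned sign in the additive fit did so by its construction: Plagl1 92502_at 0.80 and 163814_r_at 0.62, Gatm 109824_f_at 0.085, Peg3 0.12 and Ndn 94811_s_at -0.20 in VEC-null cells, and Cdkn1c -0.55, Dlk1 -0.00036 and Sgce 0.47 in VEC-positive cells. Quantile normalization turned Cdkn1c in VEC-positive cells (-0.10) and Ndn 94811_s_at in VEC-null cells (-0.093), and the cause was not tested. None of these was called as reported. Leaving out 1 copy, values ranged from -0.36 to 0.084 for Plagl1 163814_r_at, -0.90 to 0.34 for Gatm 109824_f_at and -0.37 to 0.50 for Ndn 94811_s_at in VEC-null cells. In VEC-positive cells they ranged from -0.21 to 0.25 for Cdkn1c and -0.18 to 0.060 for Sgce. The additive fit also ended the calls of Mest (0.87) and Cdkn1c (-0.55) in VEC-null cells and of Plagl1 in VEC-positive cells (0.80 and 0.62). Gatm 96336_at reached 1.04 without sparse VEC-positive copy 1, and Sgce in VEC-null cells reached 1.01 to 1.12 with an offset of 16, with quantile normalization and without sparse VEC-null copy 2. Of 396 density values under alternatives 358 kept direction and call, and of 396 line values 45 moved and 0 changed sign while called.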
